A study of Homo sapiens with 6 samples.

Results

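The MYC, MAX and MXD network is a family of transcription factors that share the partners MAX and MLX. Its members were taken by name from the deposited gene table, as MYC, MAX, MXI1, MXD1, MXD3, MXD4, MNT, MGA, MLX and MLXIP, which are 10 of its 21776 genes. RNA-seq libraries of SCC25 cells, an established human oral squamous cell carcinoma line labelled as wild type, were compared after 12 h in 1% O2 (hypoxia, 3 libraries) and in an air incubator with CO2 (normoxia, 3 libraries). Both conditions used this single line and the same serum-containing medium. The labels do not say whether the libraries came from separate cultures, so the p-values measure the spread between these libraries, which may be technical.

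MYC has no strong DNA binding of its own and works as a heterodimer with MAX at E-boxes (CACGTG and close variants), where it activates genes of ribosome production, nucleotide synthesis and cell division. The MXD proteins and MNT pair with the same MAX, bind the same sites and bring the SIN3-HDAC corepressor, which removes acetyl groups from histones, so they are known as antagonists of MYC. MGA joins MAX to a Polycomb complex, and MLX pairs with the glucose-responsive factors MLXIP and MLXIPL as well as with some MXD proteins. In squamous carcinomas MYC is a frequently amplified oncogene, and MXI1 is a known target of hypoxia-inducible factors in several tumour types.

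The libraries held 30186813, 36076088 and 32272716 counted reads under hypoxia and 37278703, 29637189 and 29981208 under normoxia. All 15 genes of a hypoxia response list were higher under hypoxia, with a median log2-fold change of 2.71, so the transcripts followed the condition labels. Of 9 squamous markers, 8 were measurable, and their summed level was 1072, 1040 and 1059 CPM (counts scaled to a common library total) under hypoxia and 911, 922 and 966 under normoxia. Per transcript length (FPKM, fragments per kilobase scaled to the library total) EPCAM was the most abundant of them in both conditions, at 164 ± 4.78 under hypoxia and 202 ± 2.12 under normoxia, whereas the basal keratin KRT14 had a single read in the 6 libraries. The defining leukocyte markers PTPRC and CD3E had at most 2 reads in any library. CD14, which made up nearly all of the leukocyte sum, rose from 1.07 ± 0.48 to 5.83 ± 0.44 CPM, and the 4 leukocyte markers in the table summed to 6.32, 5.51 and 5.76 CPM under hypoxia and 0.887, 0.769 and 1.62 under normoxia. The 6 fibroblast markers, led by COL1A1, summed to 22.1, 18.7 and 17.1 CPM against 4.03, 3.15 and 5.65, and 4 endothelial markers, led by CDH5, to 1.67, 1.26 and 1.51 against 0.296, 0.315 and 0.744. The part of these markers in the results was not tested. Fewer cells that express a gene and less of its RNA per cell cannot be told apart in such bulk libraries.

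MYC, the activating member, fell more than any other member under hypoxia. Its level was 42.8, 28.2 and 33.6 CPM in the hypoxia libraries and 250.3, 256 and 261 CPM in the normoxia libraries. Each normoxia library was far above each hypoxia library, and the hypoxia libraries spread more among themselves. The mean went from 256 ± 5.12 to 34.9 ± 7.38 CPM (SD, n = 3 each). The fitted change was -2.88 ± 0.10 (SE) on the log2 scale, or 7.35-fold lower, with a 95% interval of -3.09 to -2.67 and an adjusted p of 1.30e-13 by edgeR's quasi-likelihood test. Among the 14255 genes tested, MYC had the 38th largest decrease. No other gene of the GENCODE v29 annotation shares exonic bases with MYC.

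**Figure D1:**
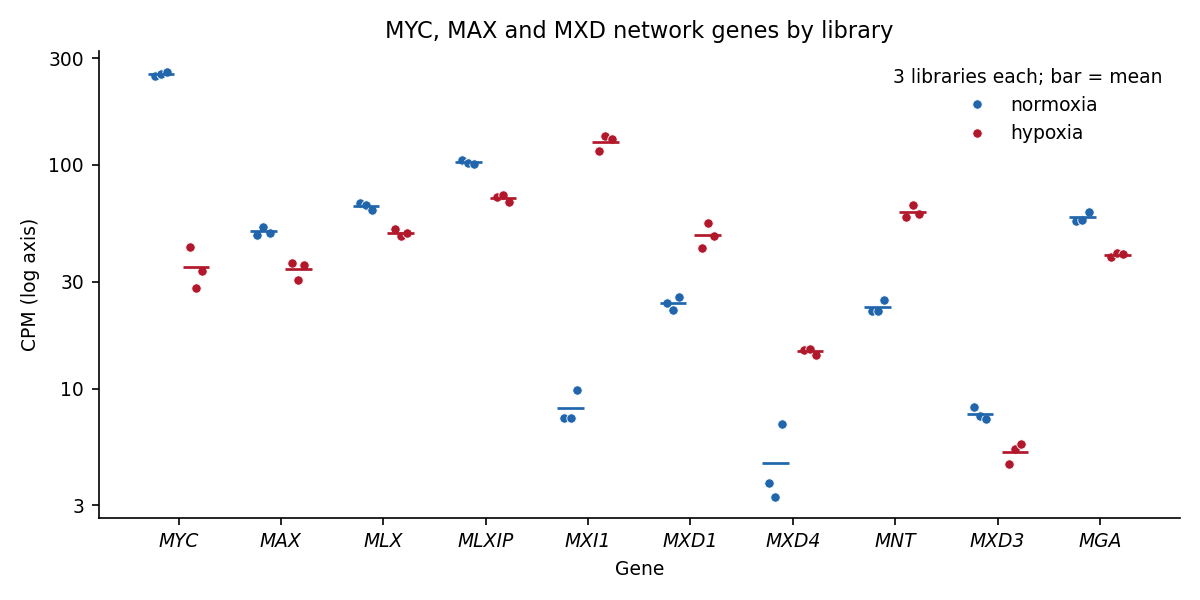
CPM of the 10 network genes in each library, on a log axis, with normoxia in blue, hypoxia in red and bars at the means of 3 libraries. MYC drops from about 256 to 34.9 CPM and MXI1 climbs from 8.19 to 127 CPM. For none of these genes do the 2 conditions overlap, as for 80.5% of all genes tested.

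The partners of MYC and of the Mondo proteins moved little beside it. MAX, the obligate partner, had 36.4, 30.6 and 35.7 CPM under hypoxia and 48.7, 52.9 and 49.6 under normoxia. The conditions did not overlap, and MAX fell by 0.56 ± 0.073 on the log2 scale (edgeR, adjusted p = 1.72e-06). MLX, the corresponding partner on the glucose-responsive side, had 51.5, 48.1 and 49.8 CPM against 67.6, 65.9 and 62.8, a log2-fold change of -0.39 ± 0.059 (edgeR, adjusted p = 9.35e-06). MLXIP, also called MondoA, which carries the transactivation domain of its dimer with MLX, had 71.9, 73.1 and 68.3 CPM against 105, 102 and 101, a log2-fold change of -0.54 ± 0.054 (edgeR, adjusted p = 6.84e-08). For all 3 the highest hypoxia value lay under the lowest normoxia value. MLX shares 770 exonic bases with PSMC3IP on the opposite strand, which went from 29.8 to 10.7 CPM, and its part in the MLX value was not tested.

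MXI1, a MAX-binding repressor, showed the reverse pattern to MYC. It had 115, 134 and 131 CPM in the hypoxia libraries and 7.39, 7.37 and 9.80 CPM in the normoxia libraries. The hypoxia libraries lay close together and none came near a normoxia library. Its mean rose from 8.19 ± 1.40 to 127 ± 10.1 CPM. The log2-fold change fitted by edgeR was 3.96 ± 0.095, or 15.6-fold, with a 95% interval of 3.76 to 4.16 (adjusted p = 3.61e-15). MXI1 ranked 219th among the increases of all genes tested.

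The RefSeq promoter table (GRCh38.p14) held 14 start sites of 9 members and none of MYC, so MYC was not searched for motifs. The 250 bases before each start were searched on both strands for ACGTG and GCGTG, the core of the binding site of hypoxia-inducible factors. They were also searched for the E-box CACGTG, each copy of which also contains ACGTG. MXI1 has 3 start sites in the promoter table. The first, upstream, held none of these motifs, and the third held GCGTG at 131 to 127 bases before the start. The second lies in an intron of 2 longer MXI1 transcripts, in no annotated exon, and is shown because MXI1 had the largest increase of the members and because it held both ACGTG and GCGTG. Its sequence is at chr10:110209981-110210230 on the plus strand, with capitals for GCGTG, 127 to 123 bases before the start, and for CACGT, the reverse complement of ACGTG, 113 to 109 bases before it:
MXI1, second start site: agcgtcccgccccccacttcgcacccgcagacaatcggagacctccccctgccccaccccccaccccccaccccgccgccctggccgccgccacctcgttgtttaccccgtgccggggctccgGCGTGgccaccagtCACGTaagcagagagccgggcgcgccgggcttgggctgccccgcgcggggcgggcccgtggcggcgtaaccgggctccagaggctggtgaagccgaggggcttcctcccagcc
ACGTG was found in 18.5% and GCGTG in 32.2% of all 35116 promoters, and at least one of them in 43.2%. Among the tested genes that matched the table, counted over all their start sites, the shares were 28.2%, 52.1% and 63.7%, so a match is common and is given as a description of the sequence only. Both motifs also lay before MGA, ACGTG before MAX, and GCGTG before MLX, MLXIP and MXD3, all of which fell. MLX, which fell, and MXD4 and MNT, which rose, held ACGTG only as part of an E-box. MXD1, which rose, held neither motif. The motifs were thus found before members of both directions. The counts are per gene and do not say from which start site the MXI1 RNA came.

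Of the other repressors, MXD1, MXD4 and MNT rose as well, by smaller factors than MXI1. MXD1, known for its induction during differentiation, had 42.6, 55.0 and 48.0 CPM under hypoxia and 24.2, 22.5 and 25.7 under normoxia. Every hypoxia library was above every normoxia library, and the rise was 2.01-fold (log2-fold change 1.01 ± 0.087; edgeR, adjusted p = 9.92e-09). MXD1 shares 237 of its exonic bases with SNRNP27 on the same strand, which went from 21.4 to 14.4 CPM.

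MXD4, which is weakly expressed here, had 14.8, 15.0 and 14.1 CPM under hypoxia and 3.76, 3.29 and 6.93 under normoxia. Normoxia replicate 3 was above the other normoxia libraries and still below each hypoxia library. That library also had the most NDRG1 of the normoxia group, with 409 CPM against 163 and 140.4, and the most EGLN3, with 10.7 against 5.86 and 3.74, both of them genes of the hypoxia response. The whole hypoxia response list summed to 4838 CPM in it against 4021 and 3995, while ANGPTL4, of the same list, was at 4.97 CPM against 4.81 and 5.66. MXD4 rose 3.16-fold, a log2-fold change of 1.66 ± 0.19 with an interval of 1.26 to 2.06 (edgeR, adjusted p = 3.60e-07), and the log2-fold change was 2.03 without normoxia replicate 3.

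MNT, a large and broadly expressed MAX partner of the same kind, had 58.8, 66.0 and 60.1 CPM under hypoxia and 22.3, 22.2 and 24.8 under normoxia. The groups were well apart, and the rise was 2.67-fold (log2-fold change 1.42 ± 0.071; edgeR, adjusted p = 8.47e-12). Its mean level went from 23.1 ± 1.49 to 61.6 ± 3.85 CPM. MNT shares 1065 exonic bases with AC006435.1 on the opposite strand, a gene that was not among those tested, and its part in the value was not tested.

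An E-box, the site that the network itself binds, lay before the starts of MXD4, MNT and MLX. Among the members in the promoter table, which lacks MYC, no other start had one. The 30 bases around each E-box are shown for comparison of the flanks, on the strand of the gene, with the box in capitals. They are at chr4:2262330-2262359 (minus strand) for MXD4, chr17:2401236-2401265 (minus strand) for MNT and chr17:42567038-42567067 (plus strand) for MLX, and none of them lies in an annotated exon.
MXD4: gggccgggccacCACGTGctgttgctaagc
MNT: ccctgcccgggcCACGTGtgcgcgcgccgg
MLX: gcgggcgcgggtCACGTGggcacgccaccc
The boxes ended 233, 188 and 45 bases before the start, respectively. MXD4 and MNT rose and MLX fell, so the 3 members with this motif did not share a direction. CACGTG was present in 6.34% of all promoters in the table and in 10.8% of the tested genes that matched it, counted over all their start sites.

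MXD3 and MGA went down with MYC and MAX. MXD3, the member of the MXD group that is linked to proliferating cells, had 4.62, 5.38 and 5.67 CPM under hypoxia and 8.25, 7.55 and 7.30 under normoxia. The difference was small and the groups did not overlap (log2-fold change -0.56 ± 0.14; edgeR, adjusted p = 0.00143). MXD3 is uncertain, since 1158 of its exonic bases are shared with PRELID1 on the opposite strand, which went from 213 to 98.5 CPM, and 926 with RAB24 on the same strand, which went from 10.0 to 22.5 CPM. Whether the counting used the strand is not given in the sources used here, and the part of these neighbours was not tested. MGA, the scaffold that ties MAX to a Polycomb complex, had 38.8, 40.5 and 39.8 CPM against 56.4, 56.6 and 61.8 and fell by 0.55 ± 0.062 on the log2 scale (edgeR, adjusted p = 2.70e-07). It shares 510 exonic bases with AC073657.1 on the opposite strand, and MXI1, MAX and MXD4 share 205, 184 and 80 with AL360182.2, AL139022.1 and MIR4800, none of which was among the genes tested.

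All 10 members passed the test, 4 of them higher (MXI1, MXD1, MXD4 and MNT) and 6 lower (MYC, MAX, MLX, MLXIP, MXD3 and MGA). Changed transcripts were the rule in this comparison: 77.8% of the 14255 genes tested passed, 39.2% as higher and 38.5% as lower, and in 80.5% the conditions did not overlap, as in all 10 members. The number of members that passed is thus close to the background, and the size of the changes tells the members apart. The median size of a change over all genes was 0.63 on the log2 scale, and 9.89% of genes changed by more than 2. MYC and MXI1 were past that size, MXD1, MXD4 and MNT lay between 1.01 and 1.66, and the 5 remaining members lay between -0.56 and -0.39. The median log2-fold change was -0.46 over the members and 0.023 over all genes tested.

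**Figure D2:**
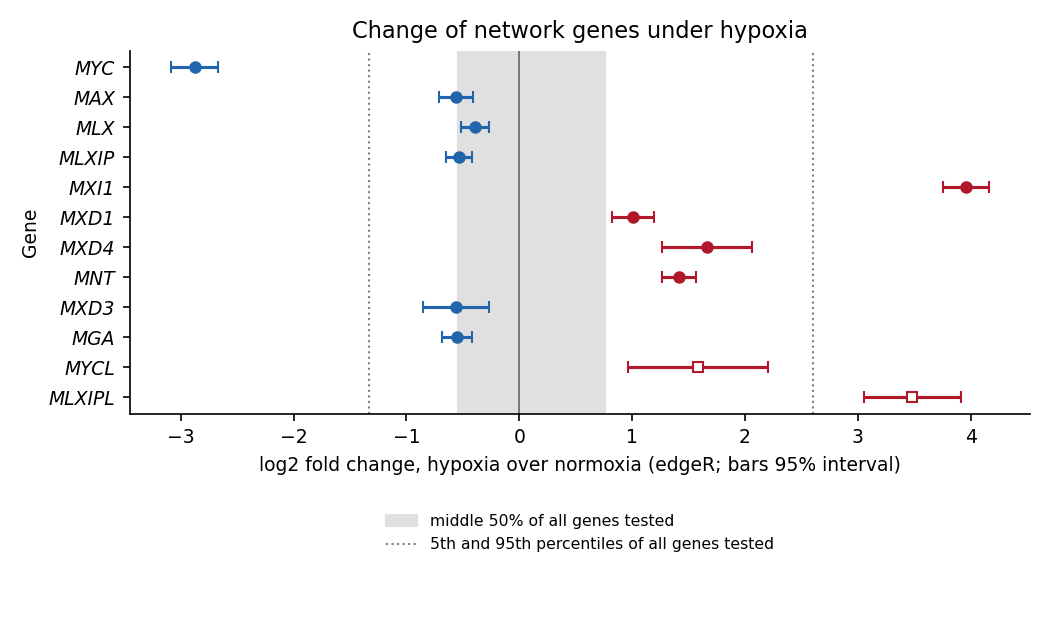
Log2-fold changes (hypoxia over normoxia) with 95% intervals for the 10 members, as filled circles, and for the relatives MYCL and MLXIPL, as open squares, over the middle 50% of all genes tested (grey) and the 5th and 95th percentiles (dotted, -1.33 and 2.61). MYC lies below the 5th percentile, and MXI1 and MLXIPL lie above the 95th.

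Levels were compared between genes per transcript length, as FPKM. Under normoxia MYC was the most abundant member at 55.6 ± 1.16 FPKM. It was followed by MLX at 25.5 ± 1.12, MAX at 15.5 ± 0.42 and MLXIP at 11.7 ± 0.38, each apart from its neighbours. MGA at 4.54 ± 0.26 and MXD1 at 4.28 ± 0.33 overlapped, as did MXD3 at 2.72 ± 0.21 with MNT at 2.48 ± 0.17, and MNT with MXI1 at 2.10 ± 0.37. MXD4 was the lowest at 1.19 ± 0.51 FPKM.

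Under hypoxia the order differed. MXI1 became the most abundant member at 33.6 ± 2.88 FPKM, apart from MLX at 20.1 ± 0.53. MAX at 10.8 ± 0.87, MXD1 at 8.89 ± 1.24, MLXIP at 8.32 ± 0.39, MYC at 7.83 ± 1.6 and MNT at 6.82 ± 0.51 formed a run in which each overlapped the next. MXD4 at 3.85 ± 0.17, MGA at 3.19 ± 0.10 and MXD3 at 1.90 ± 0.20 FPKM came last, each apart from its neighbours. MYC thus went from the highest level to one not separable from MXD1, MLXIP and MNT.

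The FPKM of MXI1, MXD1, MXD3, MXD4 and MNT, the MAX-binding antagonists, were summed to set them beside MYC within each library. The sum was 50.2, 59.6 and 55.4 FPKM in the hypoxia libraries and 12.6, 11.5 and 14.1 in the normoxia libraries. It was 5.24, 9.27 and 7.40 times the MYC level under hypoxia and 0.228, 0.211 and 0.248 times under normoxia. MYC exceeded the sum in each normoxia library and the sum exceeded MYC in each hypoxia library. The log2 ratio was 2.83 ± 0.41 under hypoxia and -2.13 ± 0.12 under normoxia, a difference of 4.96 with p = 0.1 by a two-sided exact permutation test, the smallest p that 3 against 3 libraries allow. MXI1 made up 60.5%, 60.4% and 62.1% of the sum under hypoxia and 15.2%, 16% and 17.8% under normoxia. Without MXI1 the difference was 3.86. The sum without MXI1 was 19.8, 23.6 and 21.0 FPKM under hypoxia and 10.7, 9.69 and 11.6 under normoxia. MYC is the divisor with or without MXI1, so its own fall is part of either difference. MYC relative to MAX went from 3.64, 3.43 and 3.73 to 0.835, 0.653 and 0.668 in FPKM, so MAX exceeded MYC in each hypoxia library only. These are RNA levels, with 1 length assumed per gene, and say nothing of the amounts of protein.

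**Figure D3:**
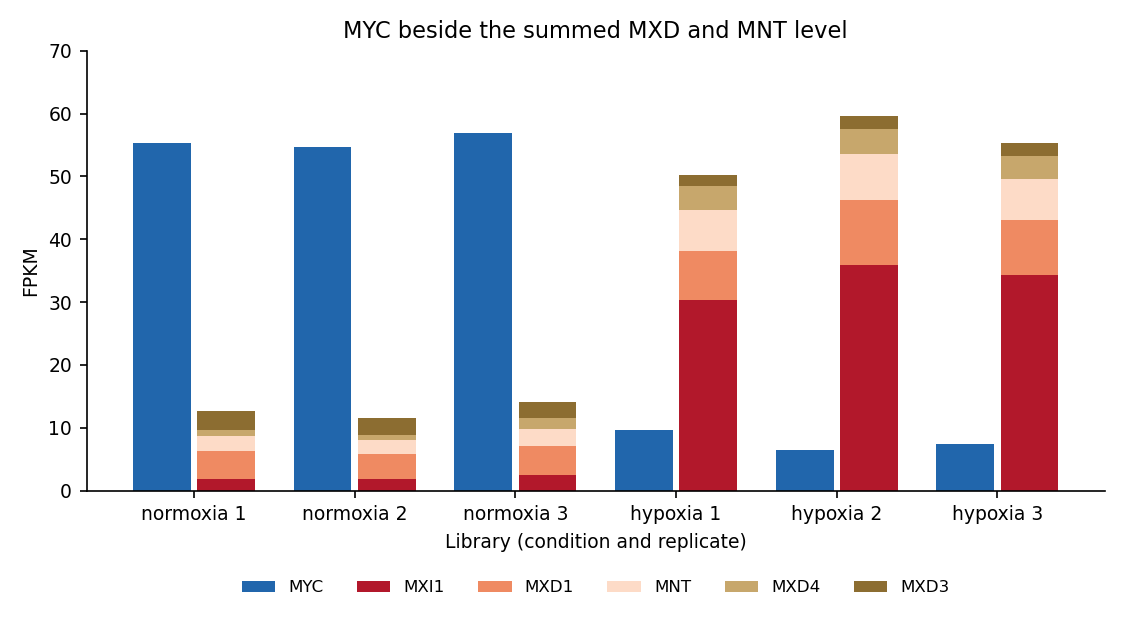
FPKM of MYC (blue bar) and the stacked FPKM of MXI1, MXD1, MNT, MXD4 and MXD3 in each of the 6 libraries, on an axis from 0. MYC stands at 54.6 to 56.9 FPKM over sums of 11.5 to 14.1 under normoxia, and at 6.43 to 9.58 under sums of 50.2 to 59.6 under hypoxia.

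Relatives of the members outside the named 10 were examined next. Of the other MYC proteins, MYCL was low, with 69, 86 and 82 reads under hypoxia and 39, 20 and 17 under normoxia, and rose by 1.59 ± 0.29 on the log2 scale (edgeR, adjusted p = 9.79e-05). MYCN was not analysed here. At 0.496 FPKM under hypoxia, MYCL stayed well under the 7.83 FPKM of MYC. MLXIPL, or ChREBP, the second glucose-responsive partner of MLX, had 432, 486 and 328 reads against 30, 30 and 45. It rose from 1.13 ± 0.36 to 12.4 ± 2.09 CPM (log2-fold change 3.48 ± 0.21; edgeR, adjusted p = 6.30e-11), while MLXIP fell. In FPKM, MLXIPL reached 3.11 ± 0.54 under hypoxia, still below MLXIP at 8.32 ± 0.39.

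Factors of the same structural class that bind E-boxes with other partners moved in both directions, with 3 of 8 tested higher (37.5%, against 39.2% of all genes tested), 3 lower (37.5%, against 38.5%) and a median log2-fold change of -0.098. TFEB, a regulator of lysosomal genes, rose by 1.39, and the sterol regulators SREBF2 and SREBF1 by 0.98 and 0.83. TFAP4, itself known as a MYC target, fell by 1.52 on the log2 scale, from 30.5 ± 3.40 to 10.7 ± 0.58 CPM. MITF fell by 0.43 and TFE3 by 0.39, and MITF did not pass when hypoxia replicate 2 was left out (edgeR, adjusted p = 0.0930).

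Genes of the SIN3-HDAC corepressor, which the MXD proteins and MNT recruit, were found in both directions, at shares near those of all genes tested. Of 16 subunits and associated proteins, 6 were higher (37.5%, against 39.2% of all genes), 7 lower (43.8%, against 38.5%) and 3 did not pass, with a median of -0.055. The subunits ARID4A, ARID4B and SAP30 rose by 0.97, 0.78 and 0.70 on the log2 scale, and BRMS1L, BRMS1 and SAP130 fell by 1.17, 1.13 and 0.69. SAP30 went from 13.5 ± 0.31 to 22 ± 1.85 CPM and BRMS1 from 90.7 ± 3.82 to 41.4 ± 1.62 CPM.

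Of 11 Polycomb partners of MGA, 7 were lower (63.6%, against 38.5% of all genes tested) and 2 higher (18.2%, against 39.2%), with a median of -0.65. The difference from all genes was not tested for this list or for those that follow. PCGF6, the subunit that defines this complex, fell by 1.29, from 15.3 ± 1.41 to 6.22 ± 0.13 CPM, L3MBTL2 fell by 1.19, and the ubiquitin ligase subunits RYBP and RNF2 rose by 0.90 and 0.45. WDR5, a chromatin adaptor that also binds MYC and is in both lists, fell by 1.20. Of 17 coactivators of MYC, 13 were lower (76.5%) and 2 higher (11.8%), with a median of -0.35. The ATPase RUVBL1 fell by 1.40, from 235 ± 16.9 to 89.1 ± 8.42 CPM, and ACTL6A by 0.95. ZBTB17, or MIZ1, which is in the list as a partner of MYC but is known for the genes that MYC represses through it, rose by 0.53, and the acetyltransferase EP300 by 0.26.

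Among 16 genes that set the stability of the MYC protein, 12 were lower (75%, against 38.5% of all genes tested) and 1 higher, with a median of -0.36. Both genes that protect MYC and genes that mark it for degradation were among those that fell. AURKA, a mitotic kinase that shields MYC proteins from a ubiquitin ligase, went from 283 ± 9.54 to 84.6 ± 6.61 CPM, a log2-fold change of -1.74 ± 0.061 (edgeR, adjusted p = 1.39e-13). CIP2A, an inhibitor of the phosphatase PP2A, and the deubiquitinase USP36 both fell by 1.24 on the log2 scale. SKP2 and FBXW7, which carry MYC to ubiquitin ligases and are named here after their values were seen, fell by 0.81 and 0.48. USP28, another deubiquitinase of MYC, rose by 1.01, from 28.1 ± 0.64 to 56.6 ± 2.79 CPM. MYC protein was not measured in these data.

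Textbook targets that MYC activates, glycolysis aside, were lower under hypoxia in 66 of 70 cases (94.3%, against 38.5% of all genes tested), with a median log2-fold change of -1.54. The nucleolar group, which makes ribosomes, was lower in 30 of 31, with a median of -1.75. NOP16, a ribosome assembly protein, had 12.7, 9.87 and 12.3 CPM under hypoxia and 81.1, 82.2 and 80.1 under normoxia. The groups were far apart, at a log2-fold change of -2.81 ± 0.082 (edgeR, adjusted p = 1.79e-14). NOP56, a core protein of small nucleolar particles, and the rRNA methyltransferase NOP2 fell by 2.51 and 2.39. PPAN was the exception and rose by 0.46 ± 0.17 (edgeR, adjusted p = 0.0192). It shares 1447 exonic bases with the read-through gene PPAN-P2RY11, and its adjusted p was 0.0948 without hypoxia replicate 3 and 0.0627 without normoxia replicate 3.

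Polyamine and nucleotide synthesis genes were lower in 13 of 15 (86.7%, against 38.5% of all genes tested), with a median of -1.52. ODC1, the rate-limiting enzyme of polyamine synthesis, went from 281 ± 41.5 to 51.7 ± 1.95 CPM, a log2-fold change of -2.44 ± 0.085 (edgeR, adjusted p = 1.29e-13). SRM, which makes spermidine, and CTPS1, which makes CTP, fell by 2.37 and 2.32 on the log2 scale. The nucleoside transporter SLC29A2 rose by 0.51.

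Mitochondrial targets were lower in 12 of 12 (against 38.5% of all genes tested), with a median of -1.16. NDUFAF4, an assembly factor of respiratory complex I, fell by 2.60, PPRC1, a coactivator of mitochondrial biogenesis, by 2.40, and TFB2M, a mitochondrial transcription factor, by 1.88. Cell cycle targets were lower in 11 of 12 (91.7%, against the same 38.5%), with a median of -1.31. CDC25A, the phosphatase that activates cyclin-dependent kinases, fell by 2.64, from 66.2 ± 9.34 to 10.7 ± 1.68 CPM, and PLK1 and PA2G4 fell by 1.95 and 1.61.

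**Figure D4:**
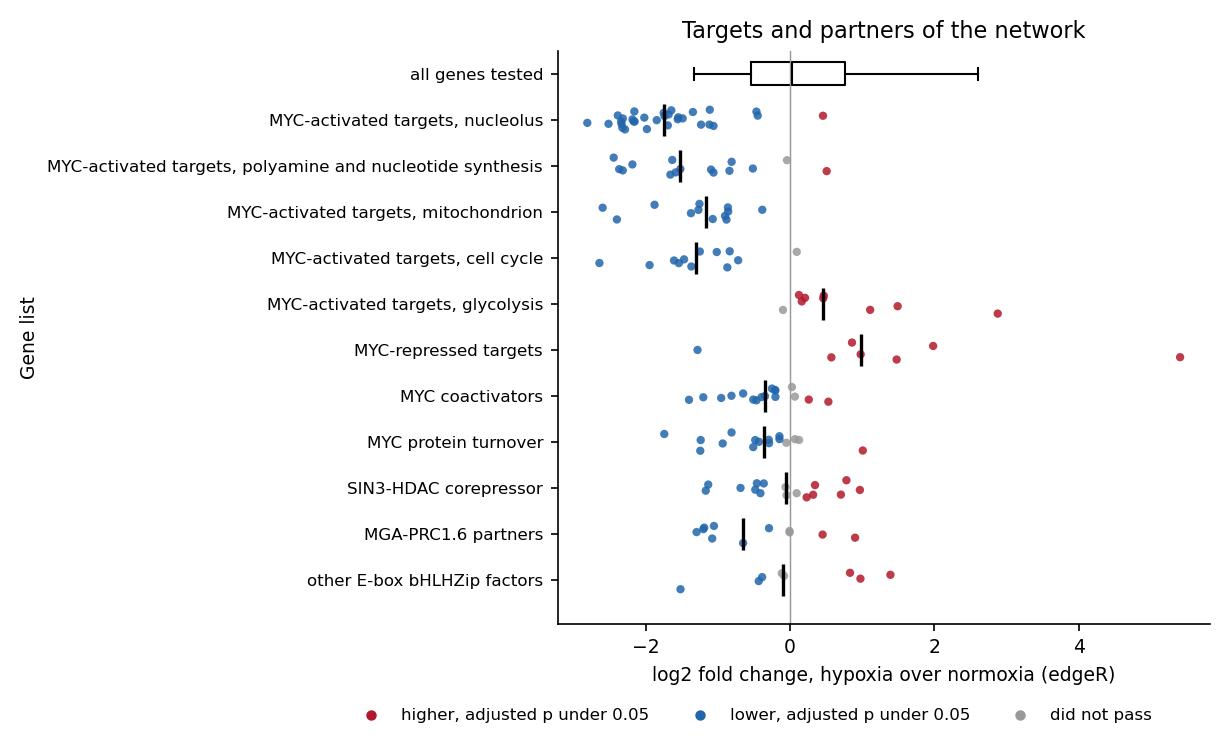
Log2-fold change (hypoxia over normoxia) of every tested gene in 11 lists around the network, with red and blue for genes that passed as higher or lower, grey for those that did not and a black bar at each list's median; the box at the top spans the 25th to 75th percentiles of all genes tested with its median, and the whiskers reach the 5th and 95th. The nucleolar median lies at -1.75 and that of the glycolytic list at 0.46.

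Glycolytic targets of MYC went the other way. Of 9 genes, 8 were higher (88.9%, against 39.2% of all genes tested), with a median of 0.46, and PFKM did not pass (log2-fold change -0.098; edgeR, adjusted p = 0.142). HK2, which traps glucose in the cell, went from 136 ± 7.87 to 999.6 ± 104 CPM, a log2-fold change of 2.88 ± 0.073 (edgeR, adjusted p = 5.04e-15). The glucose transporter SLC2A1 rose by 1.49 and GPI, the next enzyme after HK2, by 1.11. The smallest increases were those of ENO1 (log2-fold change 0.12; edgeR, adjusted p = 0.0428) and PKM (0.16; edgeR, adjusted p = 0.0149), named here after their values were seen, and neither passed when normoxia replicate 1 was left out, or replicate 1 or 3 of the hypoxia group (edgeR, adjusted p = 0.0603 to 0.208), nor ENO1 without normoxia replicate 2 (edgeR, adjusted p = 0.0788). PFKM passed as lower without normoxia replicate 3 (edgeR, adjusted p = 0.0115). SLC2A1 and LDHA are also in the hypoxia response list, so the glycolytic group is not separate from it.

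Genes that MYC is known to repress were higher in 6 of 7 tested (85.7%, against 39.2% of all genes tested), with a median of 0.98. NDRG1, which is also a hypoxia response gene, rose by 5.40 ± 0.30, from 238 ± 149 to 10052 ± 907 CPM. Normoxia replicate 3, with 409 CPM, lowers this value, and the log2-fold change was 6.03 without it. The cyclin-dependent kinase inhibitor CDKN2B went from 3.39 ± 0.99 to 13.3 ± 0.22 CPM, a log2-fold change of 1.98 ± 0.16 (edgeR, adjusted p = 4.21e-09). NDRG2 rose by 1.48 at low counts, and GADD45A, a DNA damage response gene, fell by 1.28.

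The dimer of MLXIP and MLX has TXNIP and ARRDC4, a pair of arrestin-like genes that limit glucose uptake, as its best-known targets. TXNIP had 489.7, 508 and 504 CPM under hypoxia and 191, 207 and 221 under normoxia, and rose by 1.28 ± 0.057 on the log2 scale (edgeR, adjusted p = 2.17e-12). ARRDC4 was at 41.5 ± 1.05 and 40.0 ± 1.71 CPM and did not pass (log2-fold change 0.053, interval -0.080 to 0.19; edgeR, adjusted p = 0.448). The difference between these targets was not tested.

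The E-box CACGTG was looked for in the same promoter window of the targets. It was found in 12 of the 59 activated targets that matched the promoter table, glycolysis aside (20.3%), and in 10.8% of the 11412 tested genes that matched. Among all genes that were lower it was found in 11.5%, and among those that were higher in 10.6%. ACGTG, which each E-box contains, was found in 35.6% of the same 59 targets against 28.2% of the tested genes that matched. GCGTG was found in 66.1% against 52.1%. These differences were not tested.

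Finally, the genes closest in pattern to MYC and to MXI1 were listed, by the root mean square difference of mean-centred log2 CPM over the 6 libraries, among 11573 genes. For MYC they were NOP16 (0.102), DKK1 (0.123) and GPATCH4 (0.142). DKK1, a secreted Wnt antagonist, went from 35.2 to 4.73 CPM, and GPATCH4 from 68.0 to 9.96. For MXI1 they were KCTD11 (0.0928), NRN1 (0.102) and PADI1 (0.114). KCTD11 went from 23.0 to 395 CPM, NRN1 from 5.99 to 87.7 and PADI1, an enzyme that citrullinates keratins, from 3.43 to 54.6. With 2 conditions this likeness reflects mostly the size of the change between them.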

How the data were processed

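Unnormalised read counts per gene and FPKM of the same genes were deposited by the authors for 3 hypoxia and 3 normoxia libraries of SCC25 cells. The deposited FPKM of the members follow from the counts, 1 length per gene and the library total. The aligner, annotation and use of strand are not given in the sources used here, and the submitters' processing notes list only the mouse builds GRCm38 and mm10, although organism and gene symbols are human, so coordinates come from RefSeq GRCh38.p14 and exon overlaps from GENCODE v29. The methods of the study name SCC25 among several lines, and one of its figure legends names SCC9 for this experiment. All columns of the table were mapped to samples by name.

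Tests on the counts used edgeR 4.0.16 under R 4.3.3 (glmQLFit and glmQLFTest, condition as the only term, TMM, filterByExpr, Benjamini-Hochberg adjustment at 0.05 over 14255 genes). "Higher" and "lower" mean an adjusted p under that limit. CPM use TMM-adjusted totals, and log2 CPM a prior count of 2. Standard errors are those of log2-fold changes, and other errors are SD over 3 libraries. The script was tested on simulated data. Alternatives were DESeq2 1.42.0 (its size factors and its Wald test), limma 3.58.1 on log2(FPKM + 1) and log2(FPKM + 0.1), other count filters, a replicate block and leaving out each library.

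The members and gene lists were chosen with earlier results of these data known. In each list the genes named are up to 3 with the largest increase and 3 with the largest decrease that passed the test and did not overlap between conditions, and every gene of lists of 3 or fewer. ENO1, PKM, PFKM, LDHA, SKP2, FBXW7, TP63, KRT14, PTPRC and CD3E fall outside this rule and were named after their values were seen. Replicates differed from each other beyond sampling noise (chi-square per gene 5.11 to 11.5). That value covers counting error only, so it cannot show whether the libraries came from separate cultures. Each library was counted as 1 replicate. The depth of 29637189 to 37278703 reads per library leaves counting error small for the members, whose lowest value was 94 reads, for MXD4.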

Additional observations from a re-analysis of the deposited data

How the results depend on the processing

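The 10 members kept their direction and their side of the threshold under every alternative run for them. MYC ranged from -3.06 to -2.70 and MXI1 from 3.48 to 4.09 on the log2 scale, and MXD3, the least certain, had adjusted p-values of 0.000149 to 0.00927. The genes that passed were 11093 with DESeq2's size factors in edgeR, 10859 with DESeq2, 11920 without a filter on low counts, 9967 where each library had to hold at least 10 counts, and 10669 to 11390 when 1 library was left out. Replicate numbers did not pair the libraries (correlations of the deviations 0.0175, -0.069 and 0.00122 for equal numbers), and a fit with a replicate block called 10875 genes and the same 4 members higher and 6 lower. The log2 difference of the ratio of the antagonists to MYC was 6.86 for MXI1 alone and 3.86 without MXI1. Of the glycolytic genes, 7 were higher with DESeq2's size factors in edgeR, without a filter on low counts and with the replicate block, and 6 to 8 when 1 library was left out. In the same list, 1 was lower without a filter on low counts, and 0 to 1 when 1 library was left out. In the list on MYC protein turnover, 2 genes were higher under that filter of 10 counts, and in the nucleolar list 0 to 1 were higher when 1 library was left out. The causes were not tested. At this depth MYCL and NDRG2 rest on under 100 reads a library.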

Other observations

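Of 8 squamous markers tested, 3 were higher and 4 lower, with a median log2-fold change of -0.030, and 87.5% passed against 77.8% of all genes tested. KRT6A, a keratin of activated and proliferating epithelium, had 18, 28 and 49 reads under hypoxia and 695, 537 and 356 under normoxia, a log2-fold change of -4.12 ± 0.25 (edgeR, adjusted p = 7.48e-11), the 10th largest decrease of all genes tested. The adhesion genes CDH1 and DSG3 both rose by 1.35 on the log2 scale and the keratin KRT17 by 1.06, while SFN, a 14-3-3 protein of squamous cells, fell by 0.80 and EPCAM by 0.35. TP63, the lineage factor of squamous epithelium, was at 68.3 and 62.7 CPM and did not pass (edgeR, adjusted p = 0.358). In the hypoxia response list, EGLN3, an oxygen sensor that marks hypoxia-inducible factors for degradation, rose by 6.69 ± 0.20 and ANGPTL4, a lipase inhibitor, by 3.89 ± 0.097.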
